A study of Homo sapiens with 4 samples.

Results

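Empagliflozin (Empa) blocks SGLT2, the sodium-glucose cotransporter encoded by SLC5A2, and the transcripts described here are those of SLC5A2, its partner PDZK1IP1 and the other routes by which glucose enters a proximal tubular cell. They are 10 genes of the 25992 gene names on the array, chosen by name and read by 13 of its 34127 probes: the cotransporters SLC5A1, SLC5A2, SLC5A9 and SLC5A10, the SGLT2 partner PDZK1IP1, and the facilitative transporters SLC2A1, SLC2A2, SLC2A3, SLC2A6 and SLC2A12. They were measured on 4 arrays of human proximal tubular cells (HPTCs), 2 labelled HK-2 and 2 labelled RPTEC/TERT1. HK-2 is a proximal tubular cell line immortalised with papillomavirus genes, and RPTEC/TERT1 is one immortalised with telomerase. Both lines were kept without serum and supplements for 24 h and then given IL-1β at 10 ng/mL together with Empa at 500 nM for another 24 h. Their growth media held 5.8 mM glucose for HK-2 and 5 mM for RPTEC/TERT1. All 4 arrays carry both agents and no array of cells without them was used here, so no value below is an effect of IL-1β or of Empa.

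In the proximal tubule, sodium-glucose cotransporters in the brush border draw filtered glucose into the cell along the sodium gradient that the sodium pump keeps up. SGLT2 does most of this work in the early tubule and SGLT1, encoded by SLC5A1, takes up what is left further along. Glucose then leaves towards the blood through facilitative transporters of the SLC2A family, mainly GLUT2 (SLC2A2), with GLUT1 (SLC2A1) in the later segments, and PDZK1IP1, also called MAP17, is a small membrane protein that SGLT2 needs for full activity.

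Each value is the brightness of a probe after the scanner software subtracted the background. The level used below is log2 of this brightness over the array's own 75th percentile. A level of 0 is therefore the brightness of that percentile, and levels were held at a floor of -5.37, the highest over the 4 arrays of the dimmest level marked as well above background. A gene is the mean of its probes that the scanner software marked as well above background on at least 1 array. Levels of different probes were not set against each other as amounts of RNA, since brightness also depends on the probe. The summed levels of marker lists add the brightness of different probes, floor values included, and are not amounts of RNA either.

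Before the members are described, the relation of the arrays to their labels has to be stated. Over the 17928 genes compared, the array labelled HK-2 replicate 1 correlated at 0.980 with RPTEC/TERT1 replicate 2. The correlation of HK-2 replicate 2 was 0.976 with RPTEC/TERT1 replicate 1. The arrays of 1 label correlated at 0.865 for HK-2 and 0.855 for RPTEC/TERT1. Genes are the points of these correlations and do not stand for replicates. The arrays thus resemble each other across the labels more than within them, and they are called by their labels throughout. Where values of both arrays of a line are given, replicate 1 comes first. Of the 12 proximal tubule markers examined, 4 were well above background on all 4 arrays, and 4 (CUBN, ALPL, SLC22A6 and HNF4A) on none. ANPEP, a brush border peptidase, stood at 0.49 on HK-2 replicate 1 and 0.47 on RPTEC/TERT1 replicate 2 and at the floor on the other arrays. The summed level of the proximal tubule markers, log2 of the sum of their scaled signals, was 4.36 and 2.13 on the HK-2 arrays and 3.02 and 4.05 on the RPTEC/TERT1 arrays. Most of this sum was PAX8, a kidney transcription factor, at 4.13 and 1.61 and then 2.79 and 3.73. Megalin (LRP2), the endocytic receptor, at -3.34 and -1.72 and then -2.77 and -3.06, and GGT1, a brush border enzyme, at -0.88 and -0.56 and then -0.35 and -0.65, were instead lowest on HK-2 replicate 1. The summed level of the 6 distal nephron markers, of which only UMOD was well above background on all arrays, was -0.11 and -1.90 on the HK-2 arrays and -1.90 and 0.26 on the RPTEC/TERT1 arrays. UMOD itself lay between -3.04 and -2.70, and the sum followed SLC12A1, a cotransporter of the loop of Henle, at -0.51 and the floor on the HK-2 arrays and the floor and -0.098 on the RPTEC/TERT1 arrays. That of the 5 fibroblast markers, none of which was read on all arrays, was -2.95 and -0.37 and then -0.58 and -2.98. Of the 3 leukocyte markers 2 (PTPRC and CD68) were read on all arrays, and of the 3 endothelial markers 1 (CDH5). Of the markers of other cells, COL1A2, COL3A1, PDGFRB, VWF, SLC12A3, AQP2, CALB1 and SCNN1B were well above background on no array. DCN, a fibroblast marker, stood at -0.61 on HK-2 replicate 2 and -0.87 on RPTEC/TERT1 replicate 1, against the floor and -5.27 on the first HK-2 and second RPTEC/TERT1 array. What part these differences between arrays have in the values below was not tested. The replicate number also stands for the day of the scan, which was the same for both lines within a number.

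The probes that the results turn on are shown first, 5′ to 3′, because they say which stretch of each transcript was read. The transcripts of all 13 probes are listed in RefSeq (GRCh38.p14, used for names only) under the same gene symbol, and their positions are those of the files on GRCh37. SLC5A2 was read by 1 probe on the plus strand, at chr16:31502023-31502082. Its last 30 bases hold AATAAA, the usual polyadenylation signal, shown in capitals, and no reading frame of the probe is free of a stop codon. Of all probes, 7.67% hold AATAAA.

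SLC5A2 probe A_33_P3217495, bases 31 to 60: gttgccctaaggaaaAATAAAgctgccttt

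PDZK1IP1 was read by 1 probe on the minus strand, at chr1:47650675-47650734, which is open in all 3 reading frames. It is printed whole because this member had a wide range over the arrays.

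PDZK1IP1 probe A_33_P3393801: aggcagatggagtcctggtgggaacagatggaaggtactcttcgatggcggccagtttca

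SLC2A6 was read by 2 probes on the minus strand whose values differ. Probe A_33_P3398912 lies at chr9:136336217-136336276 and also holds AATAAA, shown in capitals. Probe A_33_P3337044 lies upstream of it in the transcript, at chr9:136336469-136336528, and 30 bases of each are given.

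SLC2A6 probe A_33_P3398912, bases 31 to 60: cttttgtaaaAATAAAggaactggacctgt

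SLC2A6 probe A_33_P3337044, bases 1 to 30: tactaaaaaatacaaaaaagctgggtgtgg

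SLC2A3 was also read by 2 probes on the minus strand. Probe A_23_P139669 has 60 bases but spans 1445 bases of the genome, at chr12:8075591-8077035, so it crosses a splice junction. Probe A_24_P81900 lies in 1 piece at chr12:8072924-8072983.

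SLC2A3 probe A_23_P139669: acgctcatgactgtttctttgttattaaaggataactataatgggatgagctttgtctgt

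A probe can also read a transcript that shares part of its sequence. Of all probes, 18.6% share a run of at least 15 bases with a probe of another gene. Among the members this held for SLC2A6 probe A_33_P3398912, with 3 such probes, and for the SLC2A12 probe, with 1. Both shared runs were 16 bases long at most, and the other 11 member probes had none.

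Of the 10 members, 4 were well above background on all 4 arrays: SLC5A2, PDZK1IP1, SLC2A1 and SLC2A6. Among all genes with a value on every array this share was 53.7%. SLC2A3 was well above background on 2 arrays and SLC2A12 on 1. The other 4 members, SLC5A1, SLC5A9, SLC5A10 and SLC2A2, were so on no array, as were 30.2% of all genes. Under Empa and IL-1β, the Empa target was therefore the cotransporter of the 4 examined whose probe was well above background on every array. The mark alone does not set SLC5A2, at -3.84 to -3.05, apart from some markers of other cells. It was also set on every array for UMOD (-3.04 to -2.70), PTPRC (-4.25 to -3.32) and CDH5 (-3.02 to -2.15). Other such markers, among them COL3A1 and VWF, had it on no array. Among the facilitative transporters, SLC2A1 and SLC2A6 were read on every array and the renal exit route SLC2A2 on none. No member spot was saturated or marked as an outlier.

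**Figure D1:**
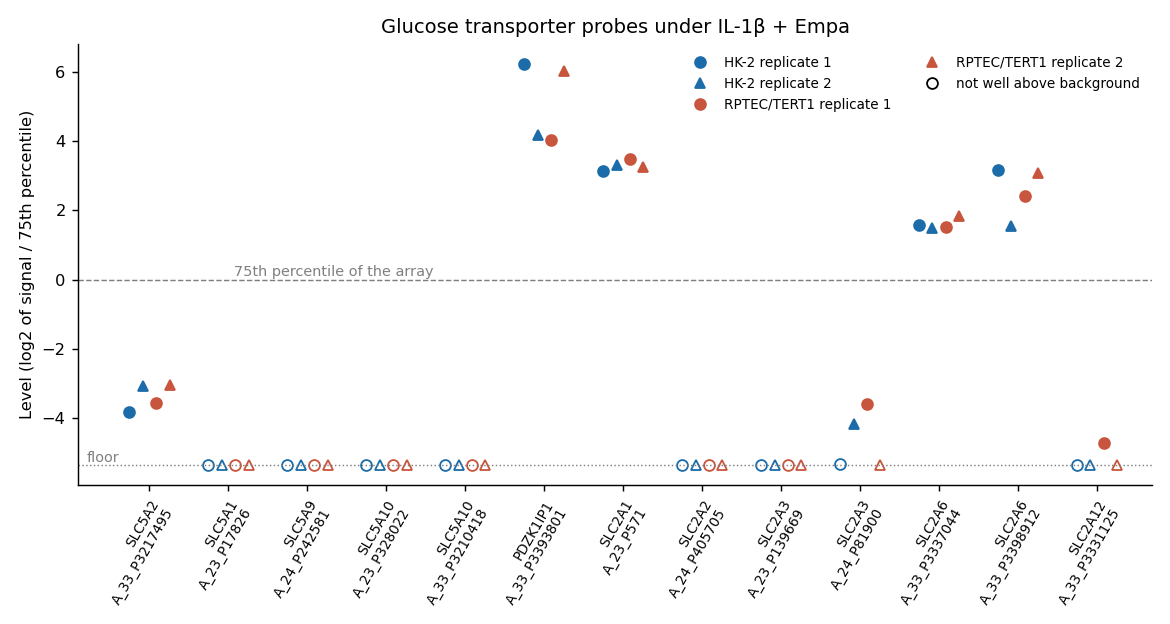
Level of each of the 13 member probes (log2 of processed signal over the 75th percentile of the array; dotted line, floor) on the 4 arrays, with colour for the labelled cell line, symbol for the replicate and open symbols for spots not well above background. SLC5A2 lies between -3.84 and -3.05 on all arrays, while SLC5A1, SLC5A9, SLC5A10 and SLC2A2 lie at the floor.

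SLC5A2 gave a processed signal of 27.5 and 88.6 on the HK-2 arrays and 41.0 and 51.9 on the RPTEC/TERT1 arrays. The spot was dim on every array but clear of most spots that carry no human sequence. There were 153 such negative control spots per array, and SLC5A2 stood at 5.35 and 9.71 times their 95th percentile on the HK-2 arrays and at 10.5 and 22.5 times on the RPTEC/TERT1 arrays. A single negative control was brighter than SLC5A2 on HK-2 replicate 1 and on RPTEC/TERT1 replicate 1, and none on the others. If a member had to exceed the brightest negative control of each array, 3 in place of 4 members would pass on every array, and SLC5A2 is the one lost. The brightest negative control had a signal of 171 on HK-2 replicate 1 and 49.3 on RPTEC/TERT1 replicate 1.

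Divided by the 75th percentile, SLC5A2 had a level of -3.84 and -3.08 on the HK-2 arrays and -3.57 and -3.05 on the RPTEC/TERT1 arrays. Both replicate 2 arrays were higher than both replicate 1 arrays, and the labelled cell lines overlapped. The range, the highest minus the lowest level, was 0.79, or 1.73-fold, and 34.5% of the genes tested had a smaller one. Probes spotted 10 times on an array give the error of a single spot within it, not between arrays. At levels of -4.5 to -2.5 their SD had a median of 0.13 to 0.19 on the 4 arrays. The highest SD of such a probe was 0.52 and 0.50 on the HK-2 arrays and 1.26 and 0.67 on the RPTEC/TERT1 arrays. The level of SLC5A2 differed between the processing alternatives. Its mean over the arrays was -3.38 here, -1.79 after normexp correction with an offset of 50, and -1.87 in the authors' deposited log2 values. With 9 spots of very bright local background on HK-2 replicate 1 taken out before the normexp fit, it was -2.30.

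The other cotransporters lay among the negative controls or close to them. SLC5A1, which encodes SGLT1, had processed signals of 1.48 and 13.0 on the HK-2 arrays and 10.9 and 0.274 on the RPTEC/TERT1 arrays. It exceeded the 95th percentile of the negative controls, 9.12 on HK-2 replicate 2 and 3.91 on RPTEC/TERT1 replicate 1, on those arrays and not on the others. The software's weaker mark, a signal significantly different from background, was set for SLC5A1 on the same 2 arrays. SLC5A9, which encodes a mannose and glucose transporter, had signals between -5.46 and -1.41, below 0 on every array. The 2 probes of SLC5A10, which encodes a mannose and fructose transporter of the kidney, had signals between 1.97 and 8.39, and only on RPTEC/TERT1 replicate 2, at 3.82 and 4.48, did they exceed the 95th percentile of the negative controls (2.31). These readings do not show that the transcripts were absent, only that they were not detectable with these probes at this brightness.

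**Figure D2:**
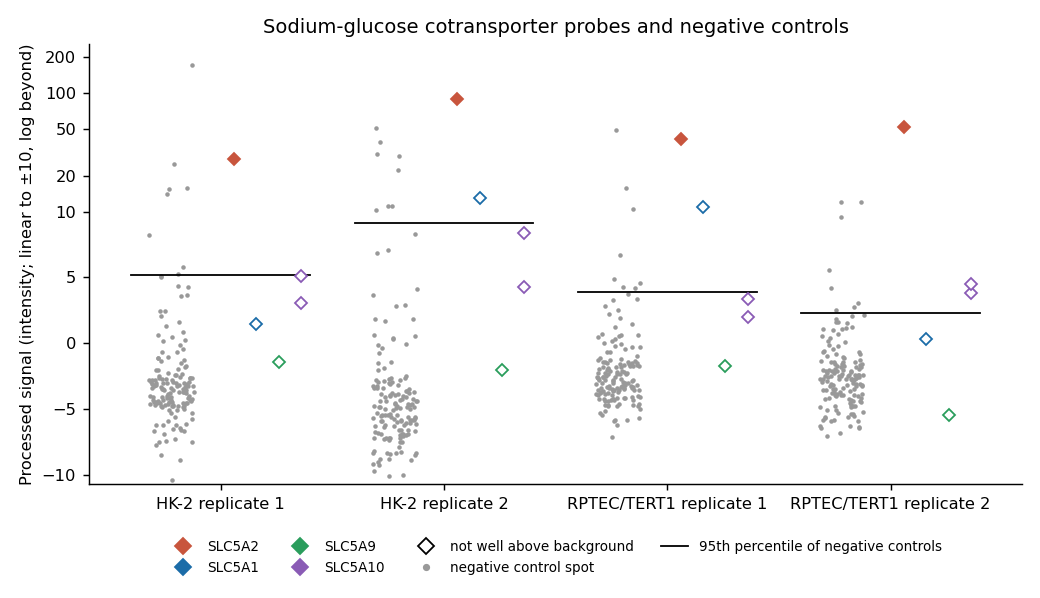
Processed signal (intensity, linear between -10 and 10 and logarithmic beyond) of the SLC5A2, SLC5A1, SLC5A9 and SLC5A10 probes (diamonds, open where not well above background) beside the 153 negative control spots of each array (grey points) and their 95th percentile (line). SLC5A2 lies at 27.5 to 88.6, with 1 negative control above it on each replicate 1 array.

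PDZK1IP1, the SGLT2 partner, had the widest range of the members in the levels used here. After normexp correction its range was 1.88 and those of 7 members were wider, SLC5A2 (2.13), SLC2A3 (2.70), SLC5A1 (3.17), SLC2A12 (3.19), SLC2A2 (3.20), SLC5A10 (3.28) and SLC5A9 (3.32). In the deposited log2 values it was 1.81, and the same members other than SLC5A2 were wider, between 1.84 for SLC2A3 and 2.40 for SLC5A9. With normexp fitted without the 9 spots of very bright local background, PDZK1IP1 again had the widest range, 2.01, followed by SLC2A6 at 0.84. Its processed signal was 29637 and 13473 on the HK-2 arrays and 8070 and 28056 on the RPTEC/TERT1 arrays, and its levels were 6.24, 4.17, 4.05 and 6.03. The first HK-2 and second RPTEC/TERT1 array were high and the other arrays low, so each labelled cell line held 1 high and 1 low array. The range was 2.19, or 4.56-fold, and 85.0% of the genes tested had a smaller one. Spots of the 10-fold probes at levels of 1 to 7 had a median SD between 0.070 and 0.13 within an array. The highest SD of such a probe was 0.52, on RPTEC/TERT1 replicate 1. In the levels used here, SLC5A2 did not share this order of arrays. Its level on HK-2 replicate 1, the array brightest for PDZK1IP1, was its lowest. Whether its order of arrays holds under the processing alternatives was not tested.

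**Figure D3:**
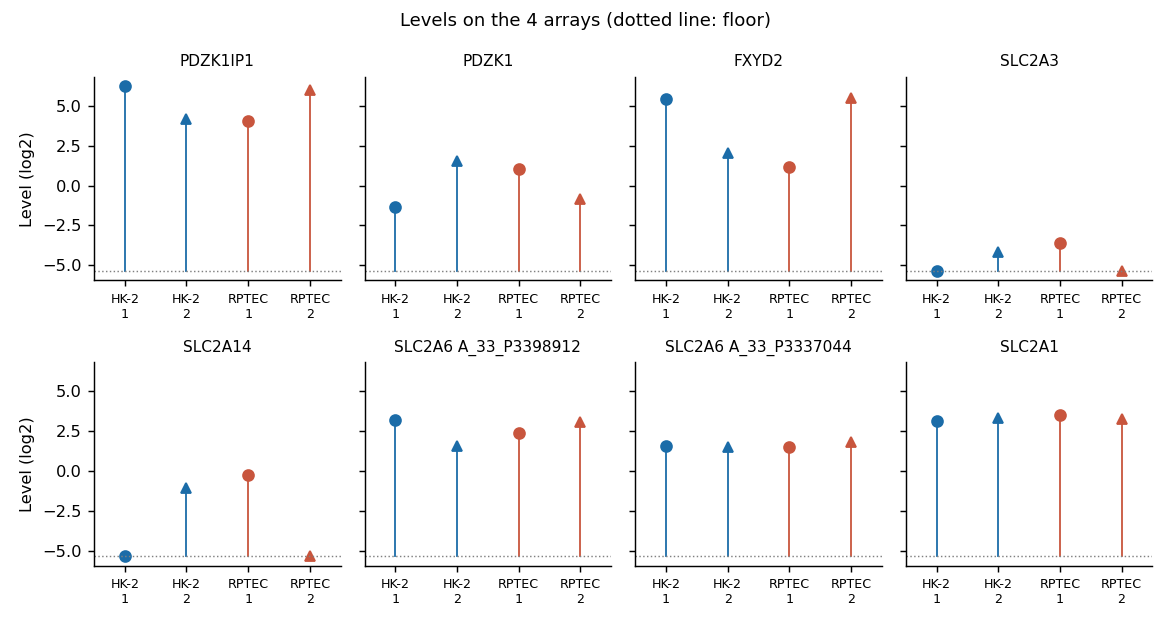
Levels (log2; dotted line, floor) of PDZK1IP1, PDZK1, FXYD2, SLC2A3, SLC2A14, both SLC2A6 probes and SLC2A1 on the 4 arrays, with colour for the labelled cell line and symbol for the replicate. PDZK1IP1 and FXYD2, a sodium pump subunit, are high on the first HK-2 and second RPTEC/TERT1 array, PDZK1, SLC2A3 and SLC2A14 are high on the other arrays, and SLC2A1 stays between 3.13 and 3.49.

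SLC2A1 encodes GLUT1, a widely expressed facilitative transporter, and had the narrowest range of the members well above background on all arrays, though not after normexp correction, where that of SLC2A6 was 0.96. Its processed signals were 3453 and 7428 on the HK-2 arrays and 5498 and 4128 on the RPTEC/TERT1 arrays, and its levels were 3.13, 3.31, 3.49 and 3.27. The raw signal was highest on HK-2 replicate 2, which also had the brightest 75th percentile (748, against 393 to 488 on the others), and the levels of all 4 arrays lay close together. The range was 0.36, or 1.28-fold, and 7.86% of the genes tested had a smaller one. The range was 1.36 after normexp correction and 0.71 in the deposited log2 values, and 0.33 when normexp was fitted without the 9 bright spots.

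SLC2A6 encodes GLUT6, a transporter of lysosomal membranes that inflammatory stimuli induce in macrophages. Its probe A_33_P3398912 had levels of 3.18 and 1.55 on the HK-2 arrays and 2.42 and 3.07 on the RPTEC/TERT1 arrays. Its probe A_33_P3337044 had levels of 1.57, 1.48, 1.52 and 1.85 on the same arrays. The probes disagree on the spread. The first ranged over 1.63 and the second over 0.37, so that the difference between them was 1.61 and 0.066 on the HK-2 arrays and 0.90 and 1.23 on the RPTEC/TERT1 arrays. For the gene, the mean of both, the levels were 2.37, 1.51, 1.97 and 2.46 and the range 0.95, with 44.2% of the genes tested below it. The spot of A_33_P3398912 on RPTEC/TERT1 replicate 2 carried a flag on its local background.

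SLC2A3 encodes GLUT3, a high-affinity transporter best known from neurons. Probe A_24_P81900 was well above background on HK-2 replicate 2, at -4.17, and on RPTEC/TERT1 replicate 1, at -3.59, a range of 1.78 down to the floor. It was not on the first HK-2 array (-5.35) and the second RPTEC/TERT1 array (floor), where its processed signals were 9.64 and -4.02. Probe A_23_P139669, which crosses the splice junction, was well above background on no array, with signals of -1.47 and 10.9 on the HK-2 arrays and 7.33 and -1.74 on the RPTEC/TERT1 arrays. The arrays that were higher for the first probe were also higher for the second. SLC2A14, a near-identical copy of SLC2A3 that the array reads separately, stood at -1.07 on HK-2 replicate 2 and -0.28 on RPTEC/TERT1 replicate 1 and at the floor on the other arrays. How far a probe of one of these copies also binds transcripts of the other was not tested, so the split between SLC2A3 and SLC2A14 is uncertain.

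SLC2A12 encodes GLUT12, a transporter found in insulin-sensitive tissue. It was well above background on RPTEC/TERT1 replicate 1 alone, with a level of -4.73 and a processed signal of 18.3. On the other arrays the signals were 7.97 and 5.83 (HK-2) and 4.56 (RPTEC/TERT1 replicate 2). SLC2A2, the GLUT2 gene, had signals of -4.12 and 9.21 on the HK-2 arrays and 0.715 and -3.79 on the RPTEC/TERT1 arrays. The highest of them, on HK-2 replicate 2, barely exceeded the 95th percentile of the negative controls there (9.12), and the others did not exceed theirs.

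The question whether the labelled cell lines differ was tested with limma. The fit covered 16468 genes, those marked well above background on 2 or more arrays, and 5 members were among them. After Benjamini-Hochberg adjustment 0 genes (0.0%) differed at 0.05, and 23 (0.14%) had an unadjusted p under 0.05, no member among them. The difference of SLC5A2, HK-2 minus RPTEC/TERT1, was -0.15 on the log2 scale (SE 0.52, limma adjusted p = 1), from a mean of -3.46 ± 0.54 (SD, n = 2) on the HK-2 arrays and -3.31 ± 0.37 (SD, n = 2) on the RPTEC/TERT1 arrays. Its 95% interval, from -1.57 to 1.27, leaves room for a difference of more than 2-fold in either direction. The sign was not stable. The difference was 0.89 after normexp correction with an offset of 50, 0.51 in the deposited log2 values, 0.23 without HK-2 replicate 1 and 0.12 without RPTEC/TERT1 replicate 2, and it was -0.14 when normexp was fitted without those 9 spots.

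The other members gave no call either, with limma adjusted p = 1 for each. For PDZK1IP1 the means were 5.20 ± 1.46 and 5.04 ± 1.40 (SD, n = 2 each), a difference of 0.16 with an interval from -2.72 to 3.05. For SLC2A1 they were 3.22 ± 0.13 and 3.38 ± 0.16 (SD, n = 2 each), a difference of -0.16 with an interval from -1.32 to 1.01. SLC2A6 had a difference of -0.27 (interval -1.73 to 1.19), from means of 1.94 ± 0.61 and 2.21 ± 0.35 (SD, n = 2 each). SLC2A3, with 1 array of each line not well above background, had a fitted difference of -0.28 (interval -2.56 to 2.00), which depends on the floor. The differences within a replicate number show what these means average. Within replicate 1 and within replicate 2, PDZK1IP1 differed by 2.19 and -1.86, and SLC2A6 by 0.40 and -0.95. For SLC2A3 each number pairs an array well above background with one that is not, so only the direction is given, lower on HK-2 within replicate 1 and higher within replicate 2. Those of SLC5A2 were -0.26 and -0.030 and those of SLC2A1 -0.36 and 0.045. The samples are called biological duplicates in the methods, and 2 arrays per line limit the precision of every difference.

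**Figure D4:**
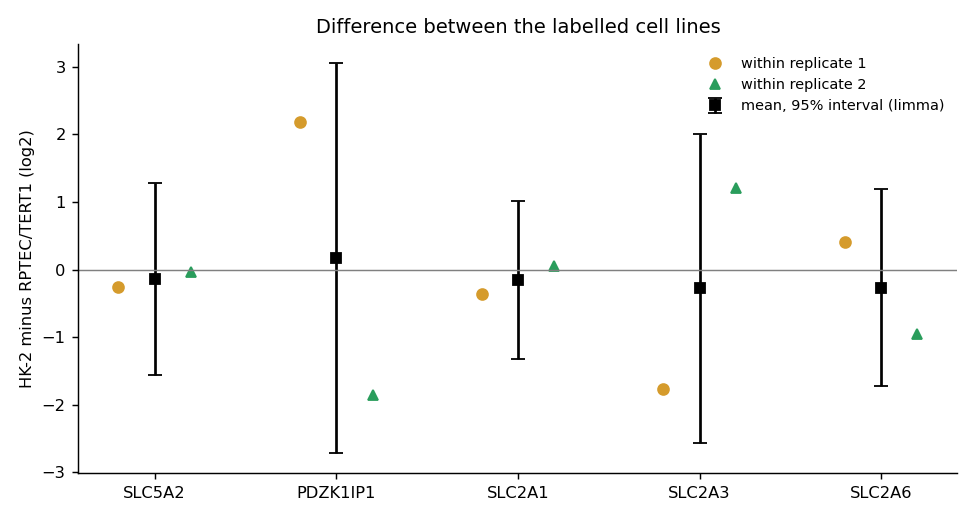
Difference between the labelled cell lines (HK-2 minus RPTEC/TERT1, log2) for the 5 members tested, as the limma estimate with its 95% interval (black squares and bars) and within replicate 1 (circles) and replicate 2 (triangles). The points of SLC2A3 are set by the floor. All 5 intervals include 0, and PDZK1IP1 lies at 2.19 within replicate 1 and -1.86 within replicate 2.

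No member had both HK-2 arrays above both RPTEC/TERT1 arrays, which held for 4.36% of the genes tested, nor both below them (2.81%). The pair of brightest arrays was the first HK-2 and second RPTEC/TERT1 array for PDZK1IP1 and SLC2A6, 2 of the 5 members, as it was for 38.8% of the genes tested. It was the second HK-2 and first RPTEC/TERT1 array for SLC2A1 and SLC2A3, against 33.2% of the genes tested, while the replicate 1 arrays of both lines were brightest for no member, against 9.75%. The first and second of these orders are thus the common ones on these arrays. In the levels used here, SLC5A2 alone among the 5 was brightest on the replicate 2 arrays of both lines. This order was held by 10.8% of the genes tested. A range of at least 1, a 2-fold spread, was reached by PDZK1IP1 and SLC2A3, 2 of the 5, against 52.9% of the genes tested. A range of at least 2 was reached by PDZK1IP1, against 18.1%. The range of SLC2A3 runs down to the floor, so its size depends on the floor. It was 2.70 after normexp correction and 0.54 with normexp fitted without the spots of very bright local background. The median range of the genes tested was 1.05.

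**Figure D5:**
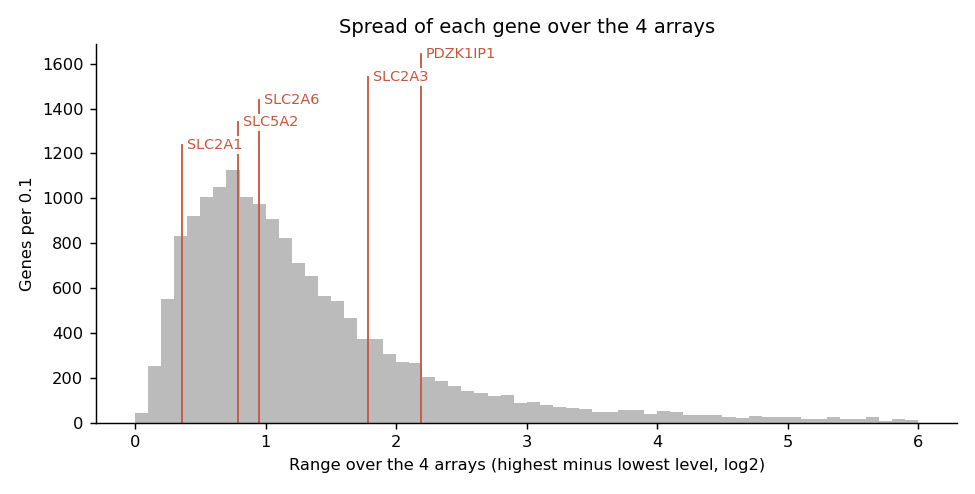
Number of genes per 0.1 of range (highest minus lowest level over the 4 arrays, log2) among the 16468 genes tested, drawn up to a range of 6, with red lines at the members. SLC2A1 at 0.36, SLC5A2 at 0.79 and SLC2A6 at 0.95 lie below the median of 1.05, and SLC2A3 at 1.78 and PDZK1IP1 at 2.19 above it. The range of SLC2A3 runs down to the floor.

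The genes whose pattern over the 4 arrays was most like that of SLC5A2 were sought by the root mean square difference of levels, each centred on its own mean, among the 13777 other genes well above background on all 4 arrays. They were CFAP74 (0.0097), LOC389765 (0.020), ZNF696 (0.030), FTSJ3 (0.046) and lnc-DIO2-3 (0.057). The measure was at most 0.1 for 26 genes (0.189%), and its median was 0.52. It was 0.34 for SLC2A1, 0.58 for SLC2A6 and 1.13 for PDZK1IP1, so the partner was farther from SLC5A2 than the median gene was. These are 4 points per gene in the levels used here, and they are a description only.

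The rest of the SLC2A and SLC5A families also held both readable and unreadable transcripts. Of the other 9 SLC2A genes, 4 (SLC2A5, SLC2A8, SLC2A10 and SLC2A11) were well above background on all arrays and 4 (SLC2A4, SLC2A7, SLC2A9 and SLC2A13) on none, among them the insulin-regulated transporter SLC2A4. SLC2A8 had levels of 0.38 and 0.38 on the first HK-2 and second RPTEC/TERT1 array, against -0.98 and -1.42 on the second HK-2 and first RPTEC/TERT1 array. SLC2A10 ran the other way, at -4.63 and -4.75 against -2.83 and -3.55. Of the other 8 SLC5A genes, 3 were well above background on all arrays, the inositol transporter SLC5A3, the vitamin transporter SLC5A6 and the lactate transporter SLC5A12, and 2 (SLC5A4 and SLC5A8) on none. SLC5A3 had the widest range among them, 2.11, from levels of 1.76 and 1.72 on the first HK-2 and second RPTEC/TERT1 array and 0.091 and -0.35 on the other arrays. Of the 5 SLC2A and 6 SLC5A genes tested, 0 differed between the labelled lines, and their median differences were 0.079 and 0.22 beside 0.017 for all genes tested.

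The genes that hold these transporters at the membrane or remove them from it were read more completely, with all 7 well above background on every array. PDZK1 encodes the scaffold for which PDZK1IP1 is named, and its order of arrays was opposite to that of its partner. Its levels were -1.34 and 1.52 on the HK-2 arrays and 1.04 and -0.86 on the RPTEC/TERT1 arrays, a range of 2.86. TXNIP, which removes GLUT1 from the cell surface, had levels of 2.21, 3.78, 3.32 and 2.78 in the same order, and TBC1D4, which holds back GLUT4 vesicles, had -3.11, -2.21, -1.17 and -3.38. For all 3 genes the second HK-2 and first RPTEC/TERT1 array were the higher arrays. SLC9A3R1, SLC9A3R2 and ARRDC4 of the same list ran the opposite way. SLC9A3R1 stood at 1.43 and 0.81 and then 0.93 and 1.59, and SLC9A3R2 at -0.43 and -1.38 and then -1.79 and -0.29. ARRDC4 stood at 0.63 and -0.54 and then -0.87 and 0.60. SGK1, the remaining gene of the list, also ran the opposite way, at 3.24 and 3.18 and then 3.17 and 3.69, though narrowly on HK-2 replicate 1. The difference between the labelled lines was -0.0033 for PDZK1, -0.051 for TXNIP and -0.38 for TBC1D4, each with limma adjusted p = 1, and 0 of the 7 genes were called.

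Of 7 sodium pump genes, whose products keep up the gradient that SGLT2 uses, 4 were well above background on every array. FXYD2, the kidney gamma subunit, had levels of 5.46 and 2.05 on the HK-2 arrays and 1.15 and 5.50 on the RPTEC/TERT1 arrays. Its range of 4.34 was wider than that of PDZK1IP1, with the same arrays high. ATP1B1 had no value on HK-2 replicate 2, where its spot was marked as an outlier, and was not tested.

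Once inside, glucose is trapped by hexokinases or, in gluconeogenic cells, set free again by glucose-6-phosphatase. Of 8 such genes 6 were well above background on every array, while HK3 and G6PC, the glucose-6-phosphatase of liver and kidney, were so on none. The hexokinase 2 gene, HK2, which is not the cell line HK-2, had levels of 0.25 and 1.40 on the HK-2 arrays and 2.01 and 0.067 on the RPTEC/TERT1 arrays. SLC37A4, which carries glucose-6-phosphate into the endoplasmic reticulum, ran in the other order, at 1.13, 0.20, -0.23 and 1.40. HK1 had levels of 1.66, 2.06, 3.03 and 1.42, highest on the same arrays as the hexokinase 2 gene. Of the 6 genes tested 0 were called between the labelled lines, and their median difference was -0.037.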

How the data were processed

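The authors deposited the intensities that Agilent Feature Extraction (version 9.5.3.1) read from each 1-colour array, unscaled between arrays, and a series table of log2 values made in a way not given in the sources used (medians 8.33, 7.14, 6.75 and 6.72, in the order HK-2 replicates 1 and 2, RPTEC/TERT1 replicates 1 and 2). The scale is log2 and the direction that of the intensities, while centring is unknown. They served as an alternative. For RNA isolation the methods give innuPREP and the labels RNeasy.

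Control spots and outlier spots were left out. Processed signals over the array's 75th percentile (393, 748, 488 and 429 over 43118 spots) were held at 0.0242, the highest over arrays of the lowest such ratio marked well above background, and then log2 was taken. Between 59.2% and 64.9% of spots were well above background, and 56 to 217 were saturated. Genes were tested with limma 3.58.1 (lmFit, eBayes; R 4.3.3), Benjamini-Hochberg adjusted over 16468 genes, and the step was tested on simulated data. Genes named are the members, the 3 of widest range in each list and the 5 most like SLC5A2. Some of these genes are not reported here. Further genes of the lists were named after their values were seen. Members and lists were chosen with earlier results of these data known. Same-numbered arrays deviated from their label means with a correlation of -0.784, so the numbers were not taken to pair the arrays.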

Additional observations from a re-analysis of the deposited data

How the results depend on the processing

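With 2 arrays per label, and arrays that resemble each other across the labels, the difference between the labelled lines has little precision, and dim members are limited by their signal over background. The call of 0 genes held under all 14 alternatives, with 3 to 241 genes at an unadjusted p under 0.05, and no member was called. The replicate number as a block called 0 genes, with 5 at an unadjusted p under 0.05, and a crossed replicate block, added after seeing the data, 0 and 183. Directions of single members were less stable, and the cause was not tested. After normexp correction the differences became 0.89 for SLC5A2, -0.44 for PDZK1IP1 and 1.11 for SLC2A3, and in the deposited log2 values 0.51, -0.057 and 0.67. With normexp fitted without the brightest background spots, the differences of these genes were -0.14, 0.11 and -0.097, with the signs of the main fit. Leaving out 1 array at a time gave -0.53 to 0.23 for SLC5A2 (above 0 without HK-2 replicate 1, at 0.23, or RPTEC/TERT1 replicate 2, at 0.12), -0.87 to 1.20 for PDZK1IP1, -1.17 to 0.31 for SLC2A3, -0.70 to 0.16 for SLC2A6 and -0.27 to -0.044 for SLC2A1. The lone array of a label was taken to vary as the others do. SLC2A3 was not tested without HK-2 replicate 2 or RPTEC/TERT1 replicate 1, where it missed the filter. Ranges moved too. After normexp correction they were 2.13 for SLC5A2, 1.36 for SLC2A1 and 3.19 for SLC2A12, and in the deposited values 1.29, 0.71 and 2.25. Without 1 array the range of SLC2A1 was 0.18 to 0.36 and that of SLC2A6 0.49 (without HK-2 replicate 2) to 0.95. The ranges of SLC2A3 and SLC5A2 were 0.54 and 0.37 when normexp was fitted without the brightest background spots (added after seeing the data), and that of SLC2A6 1.63 from its brightest probe.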
